A study of Homo sapiens with 32 samples.

Results

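Clone 65 and clone 1 are the 2 JUNB-edited clones of the MCF10A cell line in this series, and their RNA-seq libraries were set against each other. Members were taken by the clone named in each library's label, which gave 8 libraries of clone 65 and 8 of clone 1, 16 of the 32 libraries in all. MCF10A is an immortalized, non-tumorigenic human mammary epithelial line. Both clones grew from single cells after CRISPR/Cas9 editing that removed an extended piece of JUNB. Each is 1 clone of its kind, so the edit and the history of that one cell cannot be told apart. The labels call both clones JUNB knock-out, whereas the study names them JUNB mut, because a shortened JUNB polypeptide remained at a low level and was inducible. Every clone received either solvent (time 0 h) or TGFβ1 at 5 ng/ml for 6, 24 or 72 h, and each treatment was done in 2 replications. A series here is the set of 4 libraries of 1 clone and 1 replication, written as 65-1, 65-2, 1-1 and 1-2. Clones 27 and 2, with unedited JUNB (WT), gave the other 16 libraries and served as the reference level.

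JUNB is a subunit of AP-1, a family of dimeric transcription factors built from JUN, FOS, ATF and MAF proteins. TGFβ1 binds its receptor kinases, which activate SMAD proteins, and JUNB is among the genes that this pathway switches on early. In mammary epithelial cells TGFβ1 can drive epithelial-mesenchymal transition (EMT), in which junction proteins give way to fibronectin, N-cadherin and other mesenchymal products. The comparison asked what differs between 2 clones that carry the same kind of edit.

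Totals of the edited libraries lay between 41463465 and 54438689 counts, and the 10 most abundant genes took 4.3 to 5.89% of them. Defining markers of basal mammary epithelium were high in both clones, with KRT5 at a mean of 6660 CPM (counts per 1e6 counts of the library) in clone 1 and 6690 CPM in clone 65. The 8 basal markers summed to 14800 to 19500 CPM in clone 1 and 16400 to 21400 CPM in clone 65. The 5 luminal markers in the table summed to 321 to 442 and 299 to 484 CPM, the 5 fibroblast markers to 22.2 to 47.4 and 14.9 to 52.7 CPM, the 2 endothelial markers to 13.1 to 23 and 18.4 to 27 CPM, and the 4 immune markers to 16.4 to 32.5 and 18.3 to 34 CPM. Of the 20 markers that could be tested, 0 were called between the clones by limma (1 at an unadjusted p under 0.05). The quasi-likelihood test of edgeR called 0 and DESeq2 called 1, ITGB4. Over all genes tested, limma called 0.184%, 8.52% had an unadjusted p under 0.05, and DESeq2 called 1.64%. The counts of called markers are therefore not read as a result about the cell type. PTPRC and CD3E, which mark leukocytes, were at or under 0.012 CPM on average in both clones.

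Series 1-2 stood apart from the other edited series. FN1, which encodes fibronectin, reached 1410 CPM in the library labelled solvent of 1-2, against 249 CPM in 1-1, 373 CPM in 65-1 and 272 CPM in 65-2. In the library labelled 6 h of the same series FN1 was lower, at 370 CPM, while the other series reached 633 to 759 CPM. PMEPA1, a membrane protein that feeds back on TGFβ signalling, was at 136 CPM in solvent and 188 CPM at 6 h in 1-2. The other 3 series were at 66.1 to 73.4 CPM in solvent and at 418 to 466 CPM at 6 h. In a principal component analysis of the 16 libraries, the first component (23.8% of the variance) placed solvent of 1-2 at 23.9 and the other solvent libraries at 41.7 to 45.8, and it placed 6 h of 1-2 at 33.8 and the other 6 h libraries at 12.1 to 14.4. At 24 h series 1-2 lay at -4.8 on this component and the others at -26.4 to -17.8. The second component (13.1%) separated the clones, with clone 65 at 16.6 to 26.8 and clone 1 at -27.1 to -19. Whether the libraries labelled solvent and 6 h of series 1-2 were handled differently or exchanged was not tested, and their labels were kept. Every value in solvent or at 6 h, and every response, that includes series 1-2 carries this limit. One WT series, 27-2, also stood apart from its group and enters the shared estimate of the spread. It also enters the WT means and the WT responses to TGFβ1. The comparisons of the edited clones with WT were not repeated without it.

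JUNB transcript was present in both edited clones and was more abundant in clone 65. This pair of clones was set side by side with that difference known, so the JUNB values are a description without a test. In solvent JUNB was at 69.2 CPM in 1-1 and 77.5 CPM in 1-2, against 128 CPM in 65-1 and 172 CPM in 65-2. At 6 h of TGFβ1 the 4 values were 202 and 129 CPM in clone 1 and 436 and 494 CPM in clone 65. At 24 h they were 253 and 254 CPM against 380 and 518 CPM, and at 72 h 122 and 234 CPM against 228 and 359 CPM. The ranges of the clones were apart in solvent, at 6 h and at 24 h, and met only at 72 h, where 1-2 lay just above 65-1. Over the series, clone 65 was higher by 1.01 ± 0.12 on the log2 scale (SE, n = 2 series a clone), a fold of 2.01. The WT clones averaged 184 CPM (clone 27) and 201 CPM (clone 2), beside 168 CPM in clone 1 and 339 CPM in clone 65. Clone 65 thus carried the higher level of the pair relative to WT, by 0.79 ± 0.11, and clone 1 lay at -0.22 ± 0.11. TGFβ1 raised JUNB in every edited series, by 0.74 to 1.77 on the log2 scale at 6 h and by 1.57 to 1.87 at 24 h. Counts of a gene do not show which part of the transcript was read, and reads from an edited transcript and from an unedited one cannot be told apart in this table. In bulk RNA, fewer cells with a transcript and less of it per cell cannot be told apart either.

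Beside JUNB, 3 genes next to it also had higher levels in clone 65. JUNB lies on chromosome 19 of GRCh38 at chr19:12791486-12793315, on the plus strand. Its annotated neighbours are HOOK2 (chr19:12763003-12872740, minus strand), which links membranes to microtubules, PRDX2 (chr19:12796820-12801800, minus strand), a peroxiredoxin that removes hydrogen peroxide, and RNASEH2A (chr19:12806584-12813640, plus strand), the catalytic subunit of the nuclease that removes RNA from DNA-RNA hybrids. From the start of JUNB to the end of RNASEH2A the stretch measures 22.2 kb. The annotated span of HOOK2 covers the other 3 genes, so that without strand information reads in shared parts are uncertain, and HOOK2 is the most uncertain of the 4. These spans are those of GENCODE 44, and the release behind the counts is not given.

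PRDX2 was at 66.1 to 86.9 CPM in the 8 libraries of clone 1 (median 81.0) and at 114 to 170 CPM in the 8 of clone 65 (median 145). RNASEH2A was at 12 to 20.8 CPM (median 18.5) in clone 1 and 23.2 to 37.7 CPM (median 32.1) in clone 65. HOOK2 was at 12.4 to 19.2 CPM in clone 1 and 21.9 to 31.1 CPM in clone 65. For each of these 3 genes every library of clone 65 lay above every library of clone 1. Over the 15206 genes tested, 79 (0.52%) showed that separation upwards and 54 (0.355%) downwards.

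In the limma test over the series, PRDX2 was higher in clone 65 by 0.93 ± 0.06 (adjusted p = 0.00442, limma) and RNASEH2A by 0.82 ± 0.09 (adjusted p = 0.0217). HOOK2 differed by 0.75 ± 0.11 and missed the threshold over the series (adjusted p = 0.0835), although it was called in solvent, at 6 h and at 72 h, the last of these also without series 1-2. PRDX2 lost its call when either series of clone 1 was left out and kept it without either series of clone 65, and RNASEH2A lost it without any one of the 4 series. Across these removals PRDX2 stayed between 0.84 and 1.01 and RNASEH2A between 0.77 and 0.87 on the log2 scale. At 6 h PRDX2 did not follow TGFβ1 as JUNB did, and it changed from solvent by 0.03 to 0.08 on the log2 scale in the 4 edited series.

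Against WT the 4 genes divided. PRDX2 of clone 65 lay at the WT level (0.03 ± 0.05, adjusted p = 0.669), whereas PRDX2 of clone 1 lay below it by -0.89 ± 0.05 (adjusted p = 0.000373). RNASEH2A showed the same order, with 0.19 ± 0.07 in clone 65 (adjusted p = 0.0738) and -0.63 ± 0.08 in clone 1 (adjusted p = 0.00272). HOOK2 instead lay above WT in clone 65 by 0.53 ± 0.09 (adjusted p = 0.00653) and at -0.23 ± 0.10 in clone 1 (adjusted p = 0.142). JUNB had the pattern of HOOK2, above WT in clone 65 and near it in clone 1. The 2 comparisons with WT share the WT libraries, so their values are set side by side only.

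**Figure D1:**
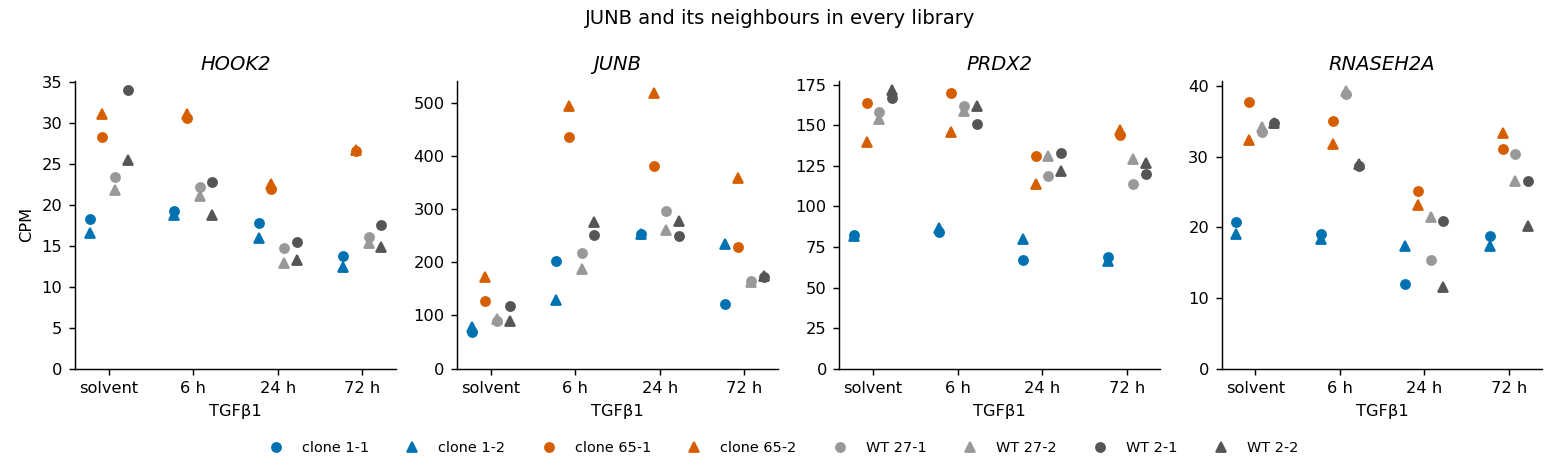
CPM of HOOK2, JUNB, PRDX2 and RNASEH2A (y axes from 0) in solvent and at 6, 24 and 72 h of TGFβ1 for each library, with circles for replication 1 and triangles for replication 2. PRDX2 of clone 1 sat at 66.1 to 86.9 CPM below clone 65 and both WT clones, while JUNB of clone 65 sat above the WT points.

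Farther along the chromosome, at genes of at least 10 CPM, the difference was small. Of the 14 genes on either side of JUNB, 17 besides the 4 above had a mean of at least 10 CPM. All 17 had a positive difference, from 0.02 to 0.30 with a median of 0.16, and 0 of them were called by limma or by the quasi-likelihood test (9 at an unadjusted p under 0.05, as were 8.52% of all genes tested), while DESeq2 called 2, MAN2B1 and DHPS, beside 1.64% of all genes. GET3, the nearest such gene before HOOK2, differed by 0.17 ± 0.05, and DNASE2, the nearest such gene after RNASEH2A, by 0.28 ± 0.12. CALR, which encodes the chaperone calreticulin and starts 147.1 kb from JUNB, differed by 0.02 ± 0.06. The direction of these smaller differences was the same under TMM scaling (trimmed mean of M-values). Below 10 CPM the 2 genes adjacent to this stretch went the other way, without a call. MAST1, which follows RNASEH2A and lies partly inside the span of HOOK2, averaged 1.01 CPM in clone 1 and 0.522 CPM in clone 65 (-0.96 ± 0.26, adjusted p = 0.356). BEST2, before HOOK2, averaged 4.85 and 3.97 CPM (-0.23 ± 0.26, adjusted p = 0.881).

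**Figure D2:**
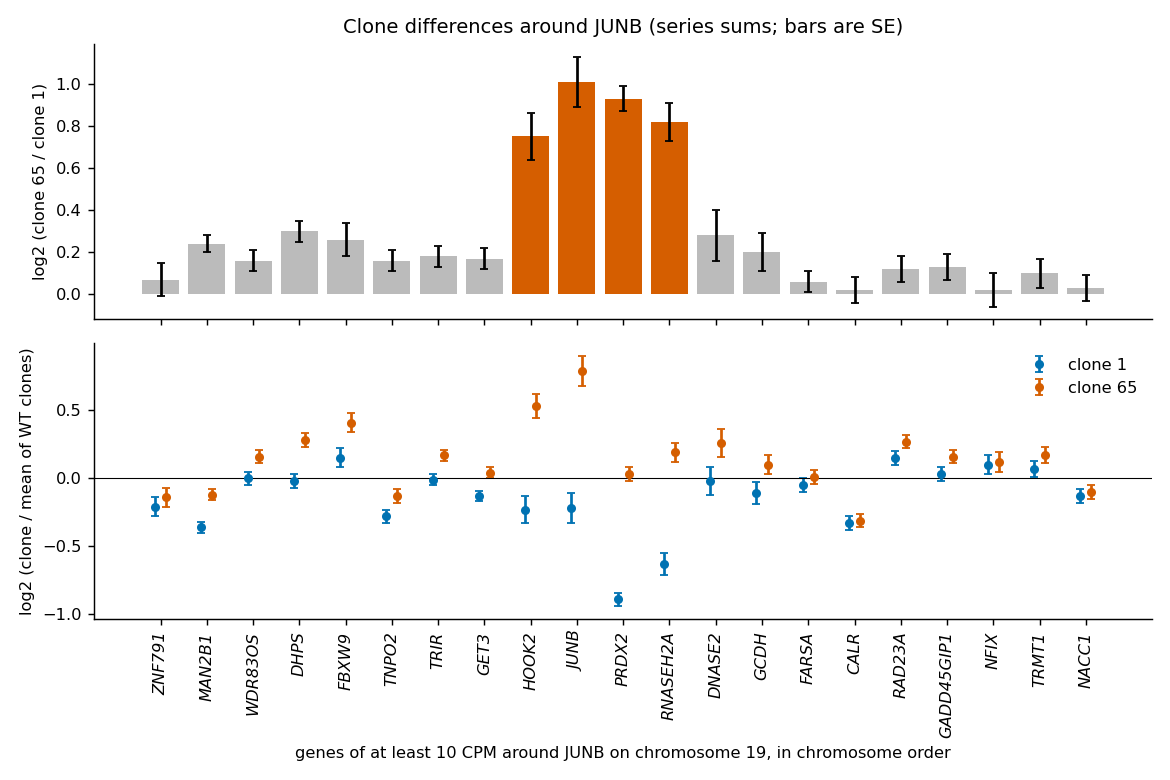
Genes of at least 10 CPM in chromosome order around JUNB. The upper panel shows the log2 difference of clone 65 from clone 1 with SE, where HOOK2, JUNB, PRDX2 and RNASEH2A (orange) stood at 0.75 to 1.01 and all others at 0.02 to 0.30. The lower panel shows each clone against the mean of the WT clones, where PRDX2 of clone 1 lay at -0.89 and JUNB of clone 65 at 0.79.

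Chromosome 19 as a whole showed a median difference of 0.062 over its 1056 tested genes, the highest of any chromosome. It was 0.056 between the clones in replication 1 and 0.052 in replication 2. The other autosomes and X had medians between -0.034 (chromosome 18) and 0.039 (chromosome 22). No chromosome was shifted by an amount near the 1.01 of JUNB. Chromosomes 19 and 17 each held 5 of the 28 genes called over the series, out of 1056 and 879 genes tested. The 5 on chromosome 19 were EMC10, PIP5K1C and 3 at the JUNB locus, one of them JUNB itself.

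Beyond that locus few genes separated the clones. Counts of the 4 libraries of each series were summed, and 28 of 15206 genes (0.184%) were differentially expressed genes (DEGs, adjusted p under 0.05 in limma-voom), of which 19 (0.125%) were higher and 9 (0.0592%) lower in clone 65. JUNB is among the 19 and is not read as a test. The same test between the WT clones called 38 genes (0.25%). Each edited clone differed from WT at far more genes, 3850 (25.3%) for clone 1 and 4710 (31%) for clone 65. The number 28 was not firm: it fell to 3 without either series of clone 1 and to 10 without either series of clone 65, and it was 188 without WT series 27-2, which stood apart, and 17 when the 24 h and 72 h libraries alone were summed. DESeq2 called 249. Without series 1-2, 25 of the 28 lost their call, with adjusted p between 0.0587 and 0.447 in limma. The differences themselves then moved by a median of 0.04 on the log2 scale and at most by 0.65, at DTX3. Adjusted p without 1-2 was 0.0587 for IFITM10, 0.151 for PITPNC1, VWA5A and MYOM3, 0.166 for DTX3 and ZNF711, 0.208 for PLCH2 and 0.418 for H19. TPTEP1, EMC10 and PIP5K1C were called under all 14 alternative fits, and none of the 28 changed sign under any of them. The minimum absolute log2 of 1 is a threshold and not one of these fits, and EMC10, at -0.94, does not reach it. The study calls the 2 replications of each condition independent and biological, while the labels give a number alone. The p-values measure the spread between these samples.

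Of the 28, 21 had no overlap between the libraries of the clones, beside 133 (0.875%) of all genes tested. The set that also reached a mean of 10 CPM comprised 11 genes, 9 higher and 2 lower in clone 65. PRDX2 and RNASEH2A were described above, and 8 of the others follow by what they do.

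Of these genes, 3 have products that act on phosphoinositides, a grouping made after their values were seen. PIP5K1C makes phosphatidylinositol 4,5-bisphosphate, a membrane lipid that focal adhesion proteins bind. It was at 69.4 to 80.9 CPM (median 75.7) in clone 1 and at 138 to 169 CPM (median 154) in clone 65, a difference of 1.03 ± 0.05 (adjusted p = 0.000853). WT lay between them, with 121 CPM in clone 27 and 85.5 CPM in clone 2, so that clone 1 was below WT by -0.42 and clone 65 above it by 0.61. The WT clones also differed from each other at this gene, by -0.50 (adjusted p = 0.0228).

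PITPNC1, which carries phosphatidylinositol between membranes, was at 11.6 to 19 CPM (median 16.6) in clone 1 and 29 to 46.7 CPM (median 33.4) in clone 65. The difference was 1.13 ± 0.08 (adjusted p = 0.00639). PLCH2, a phospholipase C, was at 30.6 to 54.0 CPM in clone 1 and 58.2 to 71.2 CPM in clone 65, a difference of 0.66 ± 0.06 (adjusted p = 0.0177). PLCH2 lost its call without any one of the 4 edited series. Both clones were below WT at PLCH2, clone 1 by -0.87 and clone 65 by -0.21.

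EMC10 is a subunit of the endoplasmic reticulum membrane complex that inserts membrane proteins. It was the firmest gene in the other direction, at 110 to 130 CPM (median 121) in clone 1 and 57.6 to 67.5 CPM (median 61.3) in clone 65, a difference of -0.94 ± 0.04 (adjusted p = 0.000853). Clone 1 was at the level of WT (114 and 109 CPM), and clone 65 alone stood below it, by -0.84. EMC10 (chr19:50476400-50490871) lies far from JUNB on the same chromosome. By treatment its difference lay between -1.09 (24 h) and -0.82 (72 h). It overlaps GARIN5A on the other strand.

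H19 is an imprinted long non-coding RNA that is normally expressed from the maternal copy. It was at 3.24 to 18.3 CPM (median 12) in clone 1 and 21.9 to 85.6 CPM (median 52.9) in clone 65. Clone 65 was higher by 2.17 ± 0.25 (adjusted p = 0.0385) and exceeded the WT means of 6.12 and 9.27 CPM, whereas clone 1 did not pass the test against WT (0.68, adjusted p = 0.12). At 24 h H19 lay below solvent in every edited series, by -2.50 and -0.28 in clone 1 and by -1.26 and -1.33 in clone 65.

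IFITM10, of the family of interferon-induced transmembrane proteins, had the opposite order. It was at 14.1 to 27.5 CPM (median 18) in clone 1 and 2.97 to 9.23 CPM (median 4.81) in clone 65, a difference of -1.86 ± 0.12 (adjusted p = 0.00419). Here clone 1 was the one away from WT, by 2.19.

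H19 (chr11:1995166-2004552), IFITM10 (chr11:1732406-1750595) and BRSK2 (chr11:1389899-1462689), a protein kinase known from neurons, lie close together on chromosome 11, yet they did not move as a block. BRSK2 was higher in clone 65 by 2.70 ± 0.24 at a low level (0.0438 to 0.762 CPM in clone 1 and 2.01 to 3.71 CPM in clone 65). Between them MOB2 differed by 0.21 ± 0.06, CTSD by -0.29 ± 0.18, SYT8 by 0.50 ± 0.14 and TNNI2 by 0.60 ± 0.16, none of them called.

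The remaining genes of this set were of mixed function. VWA5A was at 6.43 to 8.42 CPM in clone 1 and 18.8 to 22.1 CPM in clone 65 (1.49 ± 0.11, adjusted p = 0.00639), with WT between at 10.9 and 16.6 CPM. TMEM92 was at 7.87 to 11.5 CPM and 13.9 to 16.7 CPM (0.56 ± 0.07, adjusted p = 0.0446). Both VWA5A and TMEM92 lost their call whichever edited series was left out, and TMEM92 also lost it under the quasi-likelihood test.

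**Figure D3:**
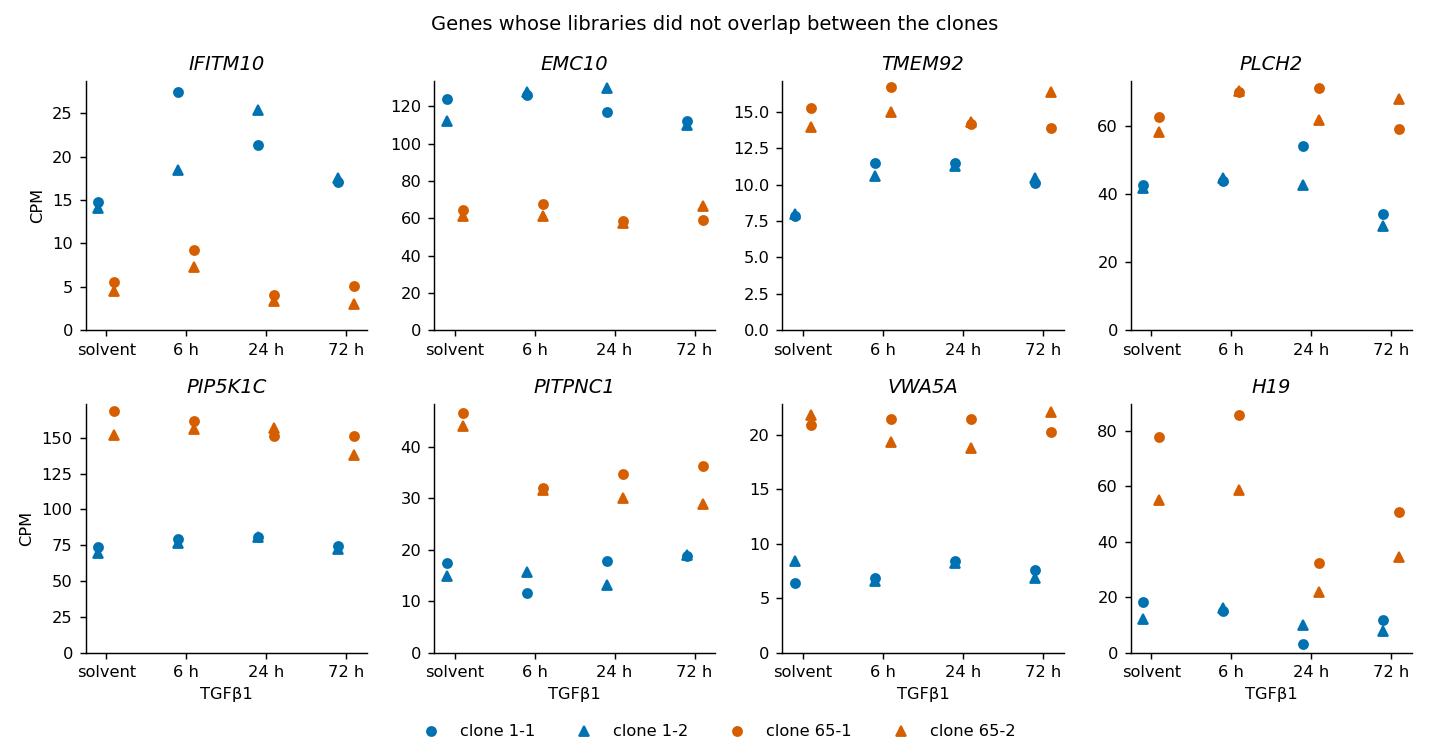
CPM (y axes from 0) in solvent and at 6, 24 and 72 h of TGFβ1 for 8 DEGs outside the JUNB locus that averaged at least 10 CPM and did not overlap between the clones, one point a library. EMC10 of clone 65 sat at 57.6 to 67.5 CPM below clone 1 at 110 to 130 CPM, and PIP5K1C had the reverse order, at 138 to 169 CPM in clone 65 and 69.4 to 80.9 CPM in clone 1.

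Several low-abundance genes were far lower in one clone. TPTEP1, a transcribed pseudogene on chromosome 22, had 2058 counts in the 8 libraries of clone 1 and 1 count in those of clone 65. The ratio was 2060, with an exact 95% interval of 369 to 81400 that covers counting error only. The WT clones divided likewise, with 0.0553 CPM in clone 27 and 7.43 CPM in clone 2. SCAT1, a long non-coding RNA, had 125 counts in clone 1 and 6 in clone 65. DTX3, a Deltex-type ubiquitin ligase, was at 0.0846 to 0.698 CPM in clone 1 and 4.57 to 8.45 CPM in clone 65, a difference of 4.32 ± 0.43. Clone 65 stood alone in this, since WT averaged 0.137 and 1.22 CPM. MYOM3, a protein of the muscle sarcomere, was the converse, at 0.254 to 1.49 CPM in clone 1 against 7.88 to 12.7 CPM in clone 65, with WT at 9.01 and 8.03 CPM. GPR63, an orphan receptor, followed MYOM3 (0.393 CPM as the median of clone 1, 3.11 CPM in clone 65, and 2.18 and 2.90 CPM in WT). ZNF711, a zinc finger gene on the X chromosome, was at a median of 1.20 CPM in clone 1 and 9.17 CPM in clone 65, and the WT clones split again, with 6.94 CPM in clone 27 and 1.29 CPM in clone 2.

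SEMA3E, a secreted guidance protein, was higher in clone 65 by 3.13 ± 0.32 at a low level, with medians of 0.215 CPM in clone 1 and 1.70 CPM in clone 65. Its receptor PLXND1 was at 14.2 to 19.4 CPM in clone 1 and 19.6 to 29.2 CPM in clone 65. PLXND1 was called in solvent (0.67, adjusted p = 0.049) and at 24 h (0.73, adjusted p = 0.0464), but not over the series (0.67, adjusted p = 0.0745), and neither call remained without series 1-2. PAX8-AS1 was higher by 1.84 ± 0.15, and it overlaps PAX8 on the other strand, so reads in the shared part are uncertain. PAX8, counted separately, averaged 1.33 CPM over the edited libraries, differed by 0.16 ± 0.26 and was not called by limma.

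The other DEGs differed by less than 1.2 on the log2 scale. MAOB, which oxidizes monoamines at the mitochondrial surface, was lower in clone 65 by -1.18 ± 0.10, TNFSF12, which encodes the cytokine TWEAK, by -0.94 ± 0.10, CHST2, a sulfotransferase of the Golgi, by -0.72 ± 0.07, and RIMOC1 by -0.46 ± 0.05. GJC1, which encodes a connexin of gap junctions, was higher by 0.75 ± 0.09, and SERPINA1, the inhibitor of neutrophil elastase, by 0.64 ± 0.08. For SERPINA1 the libraries met, with 155 to 254 CPM in clone 1 and 244 to 351 CPM in clone 65.

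TGFBI, a matrix protein named for its induction by TGFβ, was the one DEG of the TGFβ list. It was at 740 to 5330 CPM in clone 1 and 566 to 3660 CPM in clone 65, lower by -0.60 ± 0.06 over the series (adjusted p = 0.0177), but in none of the 4 treatments was it called. In solvent it stood at 1840 CPM in series 1-2, beside 740 CPM in 1-1, 686 CPM in 65-1 and 566 CPM in 65-2, and TGFBI lost its call without any one of the 4 edited series, at -0.64 to -0.56, and with libraries in place of sums. Both clones were far below the WT means of 7500 and 7830 CPM.

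Set against WT, 15 of the 28 genes passed the test in both edited clones, 8 of them on opposite sides of WT. Clone 65 alone passed at 9 genes and clone 1 alone at 4. Over all genes tested, clone 1 passed at 25.3% and clone 65 at 31%, and the share that passed in both was not counted. A gene chosen because the clones differ tends to have at least 1 of them away from WT. These tests also share libraries with the comparison that chose the genes, so the counts are a description. Genes such as PRDX2, MYOM3 and IFITM10 had clone 65 near WT, and genes such as EMC10 and DTX3 had clone 1 near WT.

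**Figure D4:**
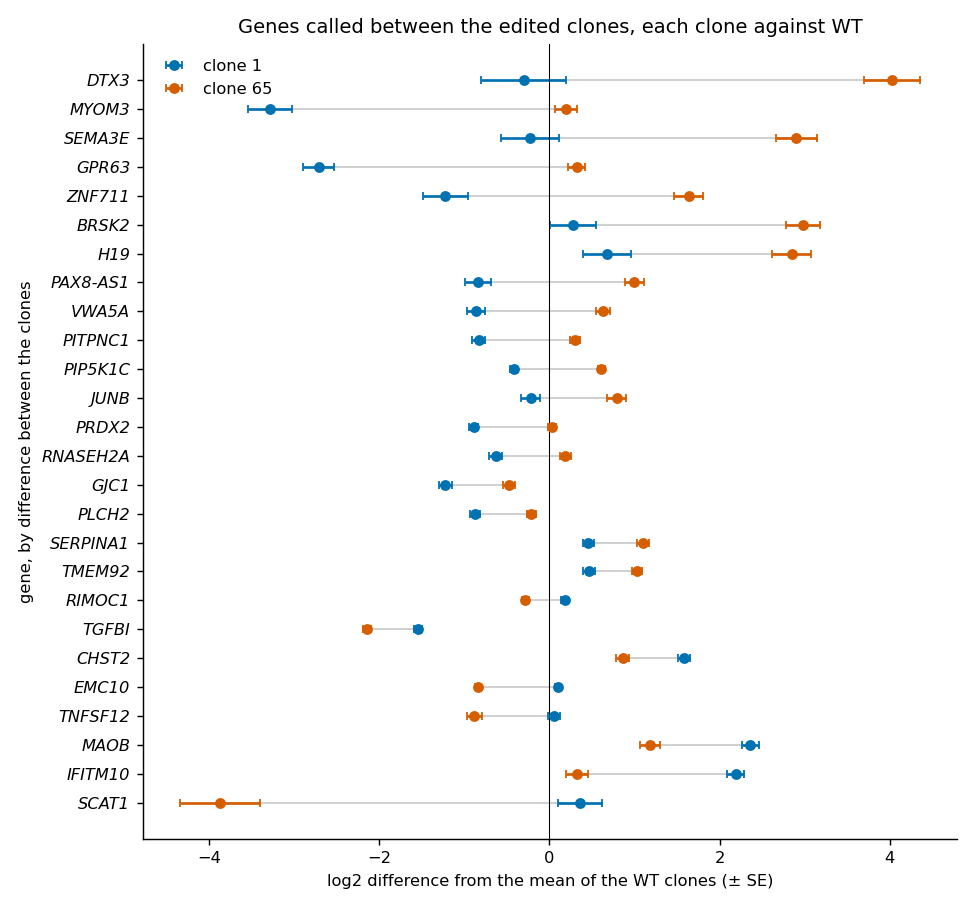
Log2 difference of each edited clone from the mean of the WT clones (x axis, ± SE) for 26 of the 28 DEGs, ordered by the difference between the clones, with TPTEP1 among those left off, because of its size. DTX3 of clone 65 reached 4.03 and MYOM3 of clone 1 lay at -3.28, each with the other clone near 0.

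Elsewhere, differences at neighbours of at least 10 CPM stayed under 0.5 on the log2 scale. DEGs outside the JUNB locus had 25 adjacent genes with at least 10 CPM. Of these, 0 were called by limma or the quasi-likelihood test (4 at an unadjusted p under 0.05), DESeq2 called 1, CYTH1, and 0 differed by 0.5 or more on the log2 scale. Over all genes tested, limma called 0.184%, 8.52% had an unadjusted p under 0.05, and DESeq2 called 1.64%. With so few calls anywhere, 0 calls among 25 genes are not read as a result about the neighbours. The share of all genes that differed by less than 0.5 was not counted. Adjacent genes below 10 CPM were not counted and went both ways. GARIN5A beside EMC10 (-0.83 ± 0.28) and PCLO beside SEMA3E (0.78 ± 0.17) had the sign of their DEG. ADAM11 beside GJC1 (-0.60 ± 0.41) and SMAD5-AS1 beside TGFBI (0.56 ± 0.43) had the opposite sign, and limma called none of them. In the 250 bases before the start of each gene (RefSeq, GRCh38.p14), the AP-1 motif TGANTCA, which reads the same on both strands, was absent from the 19 DEGs that had an entry, beside a share of 4.57% among the genes tested. That says only that these letters are not in these windows.

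At the single treatments the clones differed at 42 genes in solvent (0.276%), 51 genes after 6 h (0.335%), 25 genes after 24 h (0.164%) and 43 genes after 72 h (0.283%). With every series included, genes higher in clone 65 were the more numerous each time, with 29 (0.191%) in solvent, 29 (0.191%) after 6 h, 18 (0.118%) after 24 h and 31 (0.204%) after 72 h. Without series 1-2 they were not the more numerous in solvent or after 6 h, so this order is not firm at those treatments. In all, 86 genes were called at 1 treatment or more, 48 of them at 1 only and 15 at all 4, and in 0 cases did the sign differ between treatments at which limma called the gene. Among the 28 DEGs of the series, 14 were called at all 4 treatments, and TGFBI and SCAT1 at none. The WT clones differed at 79 (0.52%), 301 (1.98%), 54 (0.355%) and 71 (0.467%) genes. Without series 1-2 the 4 counts of clone 65 against clone 1 were 13, 12, 10 and 15, and of the genes called with it 30, 39, 15 and 28 lost their call, and without 65-1 the count at 72 h rose to 1128, where 65-2 alone stood for its clone.

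SATB1, an organizer of chromatin, was called at every treatment but not over the series (adjusted p = 0.128). It was at 3.65 to 7.59 CPM in clone 1 and 19.3 to 27.4 CPM in clone 65, and the libraries of the clones were far apart. SATB1 overlaps TBC1D5, TIMP2 overlaps CEP295NL and CCND2 overlaps CCND2-AS1, so that reads in the shared parts are uncertain. Its difference was 2.08 in solvent, 2.07 at 6 h and 2.28 at both 24 h and 72 h. FAH, an enzyme of tyrosine breakdown, was lower in clone 65 at the first 3 treatments, by -0.91, -0.99 and -1.10. CDHR1, a cadherin-related gene, was called at 6, 24 and 72 h at a level of 1.8 CPM or less.

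NEDD9, a scaffold of focal adhesions that is tied to cell migration, was the one gene of the EMT list called at a treatment, in solvent and at 6 h. In solvent it was at 15.8 and 21.4 CPM in clone 1 and at 35.0 and 39.6 CPM in clone 65 (1.02, adjusted p = 0.0211). At 6 h the values were 36.4 and 27.6 CPM against 60.3 and 62.8 CPM (0.95, adjusted p = 0.0108). At 24 h and 72 h the difference was 0.40 and 0.33 and was not called. Without series 1-2 neither call of NEDD9 remained (1.23, adjusted p = 0.0555 in solvent, and 0.76, adjusted p = 0.342 at 6 h). In solvent CSRP1, an actin-associated LIM protein, was likewise higher in clone 65 (0.67, adjusted p = 0.0064), and PDK4, which turns down glucose oxidation, was lower (-1.57, adjusted p = 0.0114). At 72 h CCND2, a cyclin of G1, was higher (0.91, adjusted p = 0.0261) and CDA, which deaminates cytidine, was lower (-3.06, adjusted p = 0.00309), with means of 15.4 CPM in clone 1 and 1.83 CPM in clone 65. Without series 1-2 none of the calls of SATB1, FAH, CDHR1, CSRP1, PDK4, CCND2 and CDA remained, with adjusted p from 0.0504 (PDK4) to 0.8 (SATB1 at 24 h) in limma.

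The gene lists lay near the background of all genes. Of the 392 genes tested in the 16 lists, limma and the quasi-likelihood test called 1 over the series, TGFBI, with 33 at an unadjusted p under 0.05, and DESeq2 called 15. Over all genes tested, limma called 0.184%, 8.52% had an unadjusted p under 0.05, and DESeq2 called 1.64%. The median difference over all genes tested was -0.00. Of 17 AP-1 genes other than JUNB, 0 were called over the series by limma (1 at an unadjusted p under 0.05) and 0 by the other tools, with a median of -0.04. JUN was at a mean of 171 CPM in clone 1 and 169 CPM in clone 65, JUND at 84.6 and 84.8 CPM, FOSL1 at 73.3 and 74.6 CPM and FOSL2 at 210 and 191 CPM. For JUN, JUND, FOSL1 and FOSL2 the differences were smaller than their SE.

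In the EMT list, 0 of 18 genes were called over the series (2 at an unadjusted p under 0.05), while DESeq2 called KANK4 and NEDD9, with a median of -0.00. SNAI2, a repressor of epithelial genes, differed by -0.03 ± 0.12, ZEB1 by -0.22 ± 0.30, VIM, which encodes vimentin, by 0.05 ± 0.14, CDH2 (N-cadherin) by 0.06 ± 0.15 and CDH1 (E-cadherin) by -0.07 ± 0.35. In the TGFβ pathway list, 1 of 30 genes was called, and 25 of 30 had a negative sign with a median of -0.07 (23 and -0.08 without series 1-2). At 6 h the same list went the other way, with 19 of 30 positive and a median of 0.08, and without series 1-2 it had 10 of 30 positive and a median of -0.04. The 35 proliferation genes had a median of -0.06 with 28 below 0, and the 28 sterol and fatty acid synthesis genes one of -0.10 with 22 below 0. Limma called 0 genes of either list over the series (0 and 2 at an unadjusted p under 0.05), DESeq2 called SCD alone, and SCD, a fatty acid desaturase, was called at 72 h (-0.56, adjusted p = 0.0486). The 28 interferon-stimulated genes had a median of -0.11 and the 17 genes of MHC and antigen processing one of -0.03, with 0 calls by limma (2 and 1 at an unadjusted p under 0.05) and OAS2 called by DESeq2.

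Matrix and protease genes gave 2 more calls at single treatments. COL16A1, a collagen, was higher in clone 65 at 6 h (0.56, adjusted p = 0.0361), and TIMP2, an inhibitor of matrix proteases, was lower at 72 h (-0.39, adjusted p = 0.0486). These calls and that of SCD were lost without series 1-2. Medians over the series were -0.04 for 32 collagens and matrix genes, -0.28 for 21 proteases and plasminogen activator genes, -0.06 for 22 integrins and laminins, -0.03 for 27 junction genes, -0.04 for 22 keratins, -0.08 for 32 squamous genes, -0.10 for 28 chemokines and interleukins, -0.02 for 14 genes of the EGF receptor and its ligands and 0.03 for 21 actin contractile genes. KRT14, a basal keratin, showed the largest positive value among keratins, 0.61 ± 0.31, and was not called (adjusted p = 0.67).

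No single gene passed the test for a different response to TGFβ1. The change of clone 65 minus the change of clone 1 was tested over all genes, and limma-voom called 0 genes (0%) at 6, 24 and 72 h. At an unadjusted p under 0.05 there were 204, 503 and 695 genes. The quasi-likelihood test of edgeR and DESeq2 also called 0 genes at each time, with 221, 483 and 576 and with 230, 482 and 592 genes at an unadjusted p under 0.05. Tested singly, clone 1 changed at 3 (0.0197%), 2013 (13.2%) and 2127 (14%) genes and clone 65 at 636 (4.18%), 1299 (8.54%) and 1642 (10.8%). The 3 and 636 at 6 h do not show a difference between the clones, since the test of the difference called none, and series 1-2, which changed little at 6 h, enters the first count.

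By series the response at 6 h was of similar size in 3 of the 4. The slope of a series' changes on the mean WT changes was taken through the origin over the genes called in WT (2899, or 19.1%, at 6 h, 8083, or 53.2%, at 24 h and 8162, or 53.7%, at 72 h). At 6 h the slope was 0.659 in 1-1, 0.641 in 65-1 and 0.666 in 65-2, against -0.00936 in 1-2. At 24 h it was 0.641 in 1-1, 0.257 in 1-2, 0.498 in 65-1 and 0.525 in 65-2. At 72 h the slopes were 0.592, 0.462, 0.464 and 0.535. The clones overlapped at each time. Since the genes were chosen by their change in WT, a slope below 1 is not read as a smaller response than in WT. As a ratio of median changes series 1-2 was at 0.234 at 6 h, where 69.4% of the genes had the direction of WT, beside 0.67 to 0.779 and 93.7 to 94.8% in the other 3 series.

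Single targets show the same picture. FN1 changed by 1.61 at 6 h in 1-1, 0.82 in 65-1 and 1.22 in 65-2, and by -1.93 in 1-2. By 72 h FN1 was 4.96 above solvent in 1-1, 2.69 in 1-2, 3.89 in 65-1 and 3.88 in 65-2. The difference of the responses was 1.18 ± 0.91 for FN1 at 6 h and 0.06 ± 0.94 at 72 h. KRT15, a keratin of basal cells that TGFβ1 lowered, showed -3.69, -3.49, -3.00 and -3.20 at 72 h in the same order of series. For JUNB itself the responses differed by 0.50 ± 0.35 at 6 h, -0.21 ± 0.35 at 24 h and -0.26 ± 0.35 at 72 h, none of them called. Mean JUNB was higher in clone 65 in solvent and at each time of TGFβ1, though libraries of the clones met at 72 h. The solvent libraries were a parallel control and not a sample taken before TGFβ1.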

How the data were processed

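RNA-seq of MCF10A clones was deposited as raw read counts of each gene in every library, which the authors obtained with STAR (alignment to Ensembl GRCh38 and counting) after Trimmomatic. Versions and the strand setting are not given in the sources used here, and the kit keeps no strand. The table holds 17788 genes, 17763 of them matched to GENCODE, and 0 columns were left unused. Groups came from the labels. The members and lists were chosen with earlier results of these data known.

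Low genes were removed with filterByExpr (edgeR 4.0.16, at least 10 counts, total 15). Counts were scaled by library size and fitted with voom and limma 3.58.1 in R 4.3.3, two-sided, with Benjamini-Hochberg adjustment over all 15206 genes and a threshold of 0.05. Over the series, counts were summed per series (~0 + clone, 8 series). At single treatments and for responses, the 16 groups of 2 libraries were fitted together (32 libraries). Named genes were JUNB, list members, and up to 12 DEGs a direction with a symbol, at least 10 CPM on average and no overlap between clones. The other DEGs of the series, genes beside them and the treatment examples were named after their values were seen. Alternatives were TMM factors, edgeR quasi-likelihood, DESeq2 1.42.0, no filter, edited clones only, a minimum absolute log2 of 1, a random effect of series, a replicate block and leaving out each edited series, and, chosen after seeing the data, no random effect, the sums of 24 h and 72 h libraries and removal of 27-2. The test was also run on simulated data, which were drawn without differences between series and so do not cover a series that stands apart. A value of 3 counts corresponds to 0.0551 to 0.0724 CPM in edited libraries. Intervals cover counting error only, as PCR copies of a molecule were not marked. Replicate libraries differed by more than sampling noise, so that each counted as its own sample. Values of 2 genes are not reported here.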

Additional observations from a re-analysis of the deposited data

Results flagged for a closer look

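Changes with TGFβ1 were compared by series for the 11 genes of the naming rule and JUNB, and 4 of 36 pairs of gene and time had both series of one clone above solvent and both series of the other below it. In each case the difference itself did not pass the test over all genes (adjusted p from 0.995 to 0.999, limma). How often such pairs occur over all genes was not counted, so the 4 are not read as a result about these genes. IFITM10 at 24 h changed by 0.52 and 0.85 on the log2 scale in clone 1 and by -0.42 and -0.44 in clone 65, a difference of -1.11 ± 0.34 (unadjusted p = 0.00357), and at 72 h its difference was -0.62 ± 0.34. PITPNC1 at 72 h changed by 0.10 and 0.35 in clone 1 and by -0.36 and -0.60 in clone 65, a difference of -0.71 ± 0.22 (unadjusted p = 0.00446). PIP5K1C at 72 h differed by -0.19 ± 0.10, with no single change above 0.16 in size. Groups of 2 libraries are too small for the search for outlying samples.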

How the results depend on the processing

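Leaving out 1 series at a time gave these ranges of called genes: 3 to 188 over the series, 13 to 86 in solvent, 12 to 117 after 6 h, 10 to 70 after 24 h and 15 to 1128 after 72 h, and 0 to 1 for the response differences at 6 h and at 72 h. The upper ends came without WT series 27-2, except 1128 and the 1 gene at 72 h, which came without 65-1, and the 1 gene at 6 h, which came without 1-1. A lone series is then assumed to vary like the other groups. Between the WT clones the counts without 27-2 were 184 over the series, 105 after 6 h and 133 after 24 h. DESeq2 called 249 genes over the series and 84, 129, 58 and 131 at the 4 treatments. Fits on the edited clones alone called 97 over the series, and 65, 39 and 83 in solvent, after 24 h and after 72 h. Libraries in place of sums called 202 with series as a random effect and 547 without one, and sums of the 24 h and 72 h libraries 17. A minimum absolute log2 of 1 left 16 over the series, 25 in solvent, 21 after 6 h and 21 after 72 h. The cause of these shifts was not tested.

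The replication number used as a replicate block gave 87 genes after 6 h and 74 after 72 h, and 48 and 29 in solvent and after 24 h. Deviations of libraries with the same number correlated at -0.0028 to 0.117 between the clones, so the numbers were not taken to pair the samples. Within a series the correlations were no larger, at -0.0716 to 0.0959 in clone 1 and 0.0754 to 0.114 in clone 65. For clone 65 the response slope of 0.653 at 6 h became 0.759 as a ratio of median changes and 0.634 over WT genes with an absolute log2 of at least 1, and the slopes at 24 h and 72 h became 0.455 and 0.392 as ratios of medians. For clone 1 the ratios of medians were 0.452, 0.481 and 0.467 in place of 0.325, 0.449 and 0.527, so that at 24 h clone 1 lay above clone 65 by the ratio and below it (0.449 against 0.512) by the slope. JUNB aside, the quasi-likelihood test lost 14 of the 42 calls in solvent, 15 of 50 at 6 h, 3 of 25 at 24 h, 10 of 43 at 72 h and 2 of 27 over the series. TMM factors lost 1 to 6 calls a comparison and the fit with no filter 1 to 7. Depth limits the genes near 3 counts a library (0.0551 to 0.0724 CPM), such as TPTEP1 and SCAT1 in clone 65.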
